A study of Paeonia lactiflora with 9 samples.

Results

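Caleosin (CLO) was represented in the developing seeds of Paeonia lactiflora ‘Hangshao’, a herbaceous peony cultivar, by the assembled contigs of cluster CL6205. All rows of the expression table whose identifier begins with CL6205 were taken, which gave 9 contigs (Contig1, 2, 3, 4, 6, 7, 8, 9 and 10) among 125685 unigenes. Contig7, 8, 9 and 10 carry the name CLO in the study's list of fatty acid and oil genes. They were selected on these same libraries as differentially expressed, so their changes are given below with standard errors and without a p. The other 5 contigs are CL6205 by name only, since no sequence or annotation of them was used here, and Contig2, Contig4 and Contig6 are given with adjusted p. The libraries came from whole seeds at 30, 60 and 90 days after flowering (DAF), with 3 libraries at each stage and 9 in all. No treatment or genotype separated them, and by the study's methods the seeds were of the same plant, so the errors and p-values may leave out differences between plants. The comparisons are 60 against 30 DAF (Group I), 90 against 60 DAF (Group II) and 90 against 30 DAF (Group III).

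Seed oil is stored as triacylglycerol in oil bodies, which bud from the endoplasmic reticulum and are wrapped in a single phospholipid layer. Oleosin (OLE), caleosin and steroleosin sit in that layer and keep the bodies from fusing. Caleosin differs from oleosin in carrying a calcium-binding EF hand outside its membrane-embedded segment, and in Arabidopsis seed caleosin also has a heme-dependent peroxygenase activity and takes part in the breakdown of oil bodies during germination.

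The qRT-PCR primers designed for Contig10, the contig that held nearly all of the caleosin signal, are shown because they are the stretches of this transcript that can be quoted here. Both are written 5′ to 3′ in lower case, without any marked bases, and are 23 and 26 bases long with a GC content of 56.5% and 50.0%.
CL6205.Contig10 forward: aagcatgggagtgactctggagc
CL6205.Contig10 reverse: ccctagcaagaacatacagaagtccc

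Expression was given as FPKM (fragments per kilobase of transcript, relative to the mapped fragments of the library), which the authors estimated with RSEM after mapping to their own assembly. The values are therefore already divided by transcript length and library size, and RSEM can divide reads among the contigs of a cluster, so the cluster sum is given beside the contigs. Between 74702 and 83519 unigenes lay above 0 in a library, and the step between low FPKM values put the depth of the libraries at 0.812 to 1.07 of that of replicate 1 at 30 DAF. Within a stage, Pearson's r between libraries over the tested unigenes was 0.927 to 0.949 at 30 and 60 DAF and 0.814 to 0.856 at 90 DAF. Stages were compared with limma on log2(FPKM + 0.5), where the added 0.5 makes changes of weakly expressed contigs look smaller than they are. A unigene was called where this log2 value moved by 1 or more and the Benjamini-Hochberg adjusted p over 55192 unigenes was 0.05 or less. On the deposited FPKM the median unigene changed by -0.31, 0.36 and 0.06 in the 3 comparisons, and after median-of-ratios scaling by -0.03, -0.04 and -0.07.

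Contig10 was among the most abundant transcripts of the seed, and its FPKM was higher at each later stage. The 30 DAF libraries had 382.73, 418.0 and 506.82 FPKM, the 60 DAF libraries 655.64, 735.15 and 628.6, and the 90 DAF libraries 1385.68, 976.72 and 1455.59. Stage means were 436 ± 63.9, 673 ± 55.4 and 1272.7 ± 259 (SD, n = 3), and on the deposited FPKM no library of one stage overlapped those of another. Replicate 2 at 90 DAF was the lowest of its stage, but still above every library at 60 DAF. After median-of-ratios scaling the libraries at 60 DAF (748.58 to 941.13) and 90 DAF (805.07 to 1125.61) overlapped. The mean was 1.54-fold higher at 60 than at 30 DAF, 1.89-fold higher at 90 than at 60 DAF and 2.92-fold higher at 90 than at 30 DAF. Ordered by FPKM within a library, which no scaling between libraries can alter, Contig10 stood at rank 112 to 160 of all unigenes in the 30 DAF libraries, at 88 to 102 in the 60 DAF libraries and at 41 to 60 in the 90 DAF libraries. Because these are whole seeds, more cells that express caleosin and more caleosin RNA in each cell cannot be told apart.

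Contig8 was the second contig of the cluster in every library. On the deposited FPKM its time course differed from that of Contig10, a difference that depended on the scaling (below). The 30 DAF libraries held 15.13, 15.22 and 14.56 FPKM, the 60 DAF libraries 16.49, 26.24 and 14.39, and the 90 DAF libraries 50.29, 67.06 and 57.15. The libraries at 30 and 60 DAF overlapped, with replicate 2 at 60 DAF above the other libraries of both stages, whereas all 3 at 90 DAF lay above them. Its mean was 1.27-fold higher in Group I, 3.05-fold in Group II and 3.89-fold in Group III. The rank of Contig8 within a library went from 5817 to 6298 at 30 DAF, over 2764 to 4861 at 60 DAF, to 1414 to 1821 at 90 DAF.

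**Figure D1:**
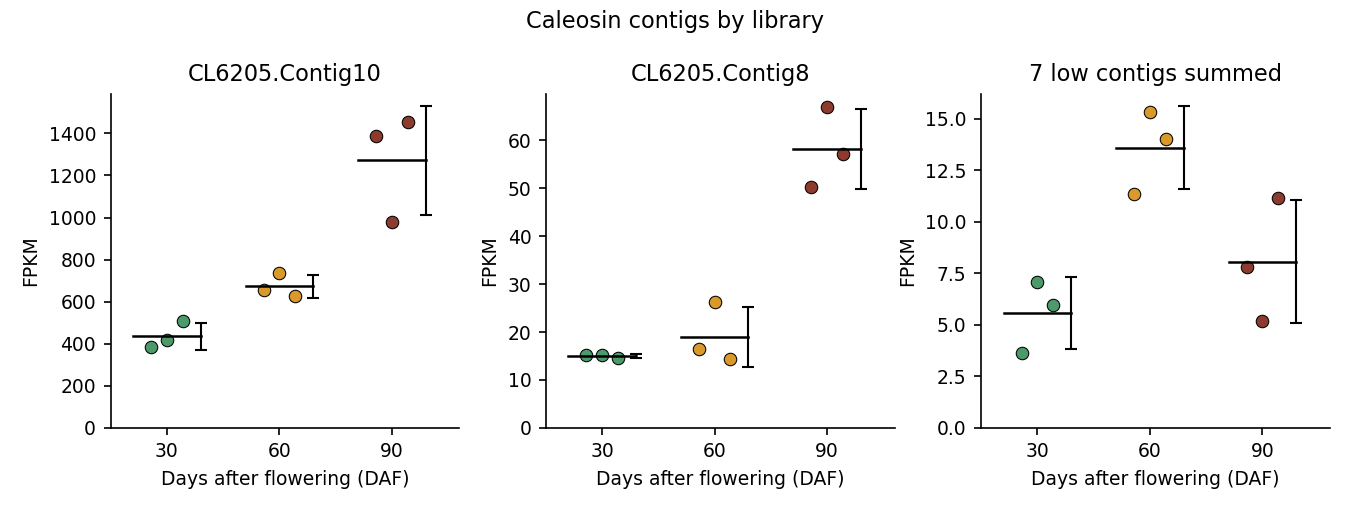
Deposited FPKM of Contig10, Contig8 and the sum of the 7 other caleosin contigs in each library (points, replicates 1 to 3 from left to right) against days after flowering, with the stage mean (line) and SD (bar, n = 3). Contig10 lies at 976.72 FPKM or more at 90 DAF and at 735.15 or less before, Contig8 stays at 14.39 to 26.24 FPKM until 60 DAF, and the 7 low contigs are highest at 60 DAF.

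Summed over the 9 contigs, caleosin came to 401.5, 440.28 and 527.35 FPKM in the 30 DAF libraries, 683.49, 776.74 and 657.01 in the 60 DAF libraries, and 1443.76, 1048.99 and 1523.91 in the 90 DAF libraries. Stage means of 456 ± 64.5, 706 ± 62.9 and 1338.9 ± 254 were 1.55-fold, 1.90-fold and 2.93-fold apart in Groups I, II and III. As a share of all FPKM of a library, the cluster held 0.0675% ± 0.00967 at 30 DAF, 0.103% ± 0.00727 at 60 DAF and 0.193% ± 0.0351 at 90 DAF. These 3 ranges did not overlap.

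On the log2 scale the rise over the whole period was similar under each scaling, but its timing was not. In Group III the cluster sum changed by 1.54 (SE 0.19) on the deposited FPKM, 1.33 (SE 0.20) after median-of-ratios scaling and 1.41 (SE 0.20) after quantile normalization. In Group I the change was 0.63 (SE 0.19) on the deposited FPKM, 1.06 after median-of-ratios scaling and 0.70 after quantile normalization. In Group II it was 0.91, 0.27 and 0.71 in the same order. With median-of-ratios scaling the cluster sum was 350.75 to 499.1 in the 30 DAF libraries, 780.38 to 994.38 in those of 60 DAF and 864.64 to 1178.44 in those of 90 DAF, so the libraries at 60 and 90 DAF overlapped. The larger step thus fell between 60 and 90 DAF on the deposited FPKM and between 30 and 60 DAF after median-of-ratios scaling. After quantile normalization the steps of the sum were alike, at 0.70 and 0.71. Contig10 followed the sum on the deposited FPKM, with changes of 0.63, 0.90 and 1.53 (SE 0.19 each) in Groups I, II and III. It also did so after median-of-ratios scaling, with 1.05, 0.27 and 1.32 (SE 0.20 each). After quantile normalization Contig10 parted from the sum, with 0.47, 1.16 and 1.63 (SE 0.21 each), so its larger step then fell in Group II. That normalization was run separately on the unigenes and on the cluster sums. Contig8 changed by 0.29, 1.62 and 1.91 (SE 0.22 each) on the deposited FPKM and by 0.70, 1.0 and 1.70 (SE 0.25 each) after median-of-ratios scaling. Under median-of-ratios scaling its libraries no longer overlapped between 30 DAF (12.12 to 15.3) and 60 DAF (17.89 to 33.59). After quantile normalization Contig8 changed by 0.65, 1.23 and 1.87 (SE 0.21 each), close to the values of Contig10 under that normalization.

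**Figure D2:**
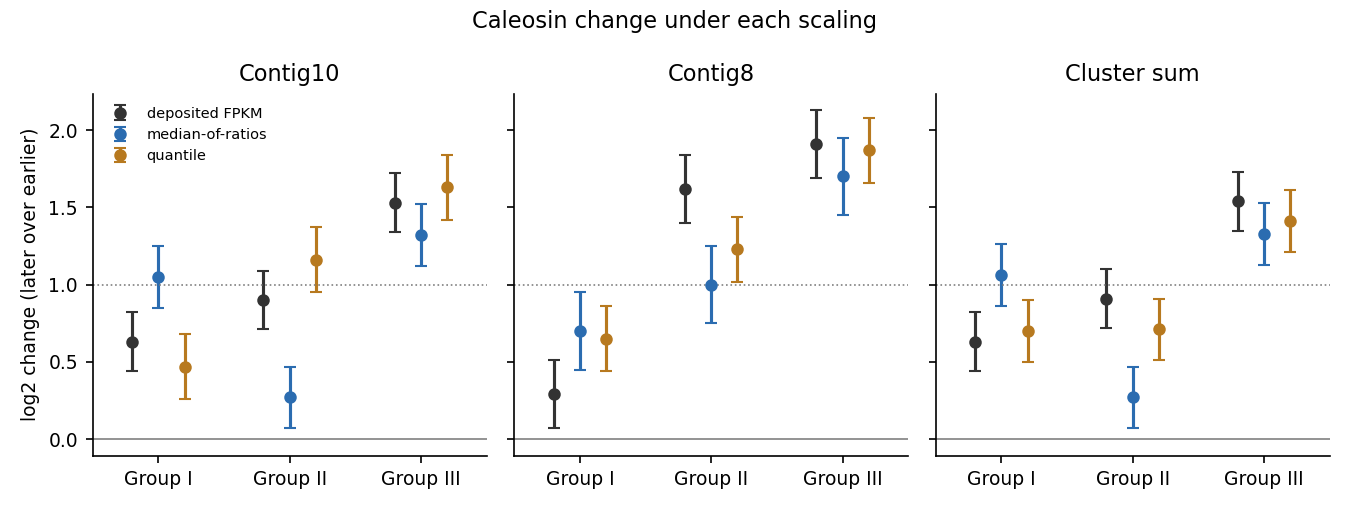
Log2 change (later over earlier stage, limma coefficient on log2(FPKM + 0.5), bars are standard errors) of Contig10, Contig8 and the cluster sum in Groups I to III on deposited FPKM, after median-of-ratios scaling and after quantile normalization; the dotted line marks a change of 1. Group III lies above 1 in all 3 panels, while the Group II change of the cluster sum goes from 0.91 to 0.27 with the scaling.

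The other 7 contigs were low, at 4.44 FPKM or less in every library, and as a set they peaked in the middle of the period. Their sum was 3.64, 7.06 and 5.97 FPKM in the 30 DAF libraries, 11.36, 15.35 and 14.02 in those of 60 DAF, and 7.79, 5.21 and 11.17 in those of 90 DAF. Each library at 60 DAF lay above each of the others. As a share of the cluster, a ratio within a library, the 7 contigs held 0.907% to 1.60% (30 DAF), 1.66% to 2.13% (60 DAF) and 0.497% to 0.733% (90 DAF) per library, without overlap between any of the stages. This is a description without a test, because Contig7, Contig9 and Contig10, which makes up most of the cluster, were selected on these libraries. Of the 7, Contig1 had its highest mean at 30 DAF, and the 6 others at 60 DAF.

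Contig1 ran opposite to Contig10. It measured 1.19, 1.31 and 1.33 FPKM at 30 DAF, 0.37, 0.40 and 0.44 at 60 DAF, and was listed at 0 in all 3 libraries at 90 DAF. Replicates differed little, with an SD of 0.0757 around a mean of 1.28 at 30 DAF and of 0.0351 around 0.403 at 60 DAF. Contig1 passed the filter on low values only through its 3 libraries at 30 DAF, so a difference from that stage was built in, and its changes are given without a p and support nothing further. They were -0.98, -0.85 and -1.83 on the log2 scale in Groups I, II and III (SE 0.18 each), and with 0.1 added in place of 0.5 the first 2 became -1.45 and -2.33, so their size depends on the value added.

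Contig2 reached the highest single value of the 7 low contigs. The 30 DAF libraries had 0.53, 2.02 and 1.07 FPKM, those of 60 DAF 2.66, 3.67 and 4.44, and those of 90 DAF 3.33, 3.0 and 2.61. All libraries at 60 and 90 DAF lay above those at 30 DAF, and the later stages overlapped on the deposited FPKM. The rise in Group I was 1.33 on the log2 scale (SE 0.34, limma, adjusted p = 0.035) and in Group III 1.12 (SE 0.34, adjusted p = 0.0273), while in Group II the change was -0.21 (adjusted p = 0.658). The Group I call was lost without replicate 1 (adjusted p = 0.0867) or 3 (0.101) at 30 DAF and without replicate 2 (0.108) or 3 (0.12) at 60 DAF, and its adjusted p ran from 0.011 to 0.12 over all alternatives. The Group III call was lost without replicate 1 (0.0824) or 3 (0.0725) at 30 DAF and without replicate 1 (0.0641) or 2 (0.0602) at 90 DAF, with only the 2 stages compared (0.0565) and with 1 added (change 0.90), and over all alternatives its adjusted p ran from 0.00776 to 0.0824. After median-of-ratios scaling the Group I change was 1.69 (adjusted p = 0.011) and the Group III change 0.93 (adjusted p = 0.0415), below the limit of 1. The Group II change was then -0.76 (adjusted p = 0.0967), and the libraries at 60 and 90 DAF no longer overlapped.

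Contig6 resembled Contig2 until 60 DAF, at 0.56, 2.04 and 1.29 FPKM at 30 DAF and 2.73, 3.69 and 3.70 at 60 DAF. At 90 DAF it scattered, at 1.51, 0.60 and 3.13. No change of it passed on the deposited FPKM, with 1.19 in Group I (limma, adjusted p = 0.147), -0.94 in Group II (0.147) and 0.25 in Group III (0.715). In Group II it passed after median-of-ratios scaling (-1.44, adjusted p = 0.0302), after quantile normalization (-1.27, 0.0496) and without replicate 3 at 90 DAF (-1.37, 0.0377). Contig4 measured 0.53, 0 and 1.07 FPKM in the 30 DAF libraries, 2.49, 2.77 and 1.02 in those of 60 DAF and 0.95, 0.60 and 2.74 in those of 90 DAF, and no change of it passed (adjusted p = 0.148, 0.512 and 0.239 in Groups I, II and III). Contig3 had 0.57 FPKM in replicate 2 at 60 DAF and was listed at 0 in the 8 other libraries, so it did not pass the filter of 0.5 FPKM in 3 libraries and was not tested.

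Contig7 and Contig9, both named CLO, were as low as the contigs without that name. Contig7 was at 0.73, 0.83 and 0.72 FPKM in the 30 DAF libraries, 1.13, 3.61 and 1.34 in those of 60 DAF, and 0, 0.38 and 0.93 in those of 90 DAF. Contig9 was at 0.10, 0.86 and 0.49 FPKM in the 30 DAF libraries, 1.98, 0.64 and 3.08 in those of 60 DAF, and 2.0, 0.63 and 1.76 in those of 90 DAF. At 60 DAF, replicate 2 was the highest library for Contig7 and the lowest for Contig9. The log2 changes of Contig7 in Groups I, II and III were 0.88, -1.43 and -0.56 (SE 0.46 each), and those of Contig9 were 1.22, -0.22 and 0.99 (SE 0.51 each). Contig7 thus had its lowest mean at 90 DAF, the stage at which Contig10 and Contig8 had their highest.

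**Figure D3:**
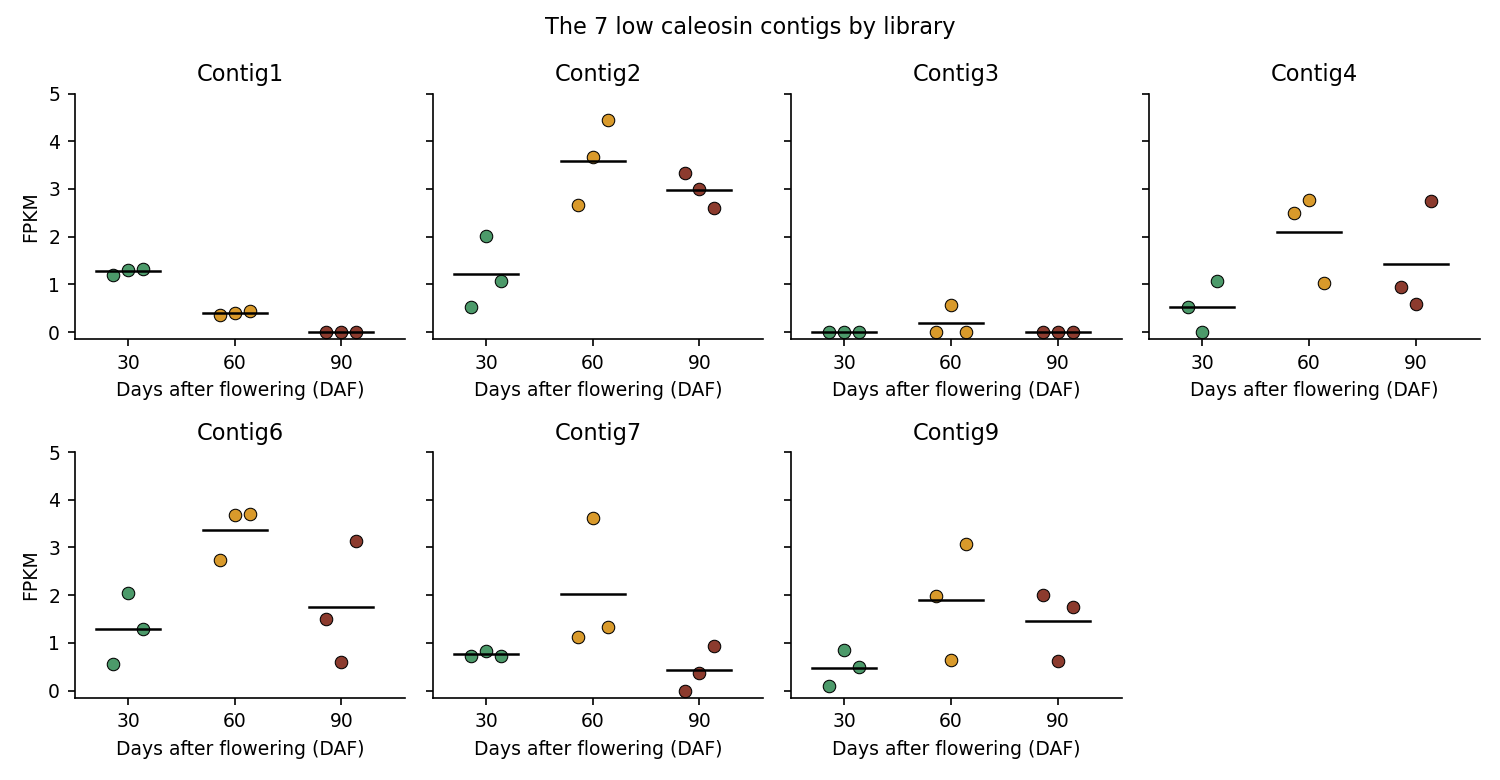
FPKM of the 7 low caleosin contigs in each library (points, replicates 1 to 3 from left to right) against days after flowering, on a common axis from 0 to 5 FPKM, with the stage mean as a line. Contig1 goes from 1.28 on average to 0.403 and then 0, Contig2 and Contig6 are highest at 60 DAF, and Contig3 is above 0 in 1 library.

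Of the 9 contigs, 8 were tested. In Group I limma called 1 contig higher (Contig2) and 0 lower, where 1.72% and 6.33% of all tested unigenes were called higher and lower. In Group II it called 1 higher (Contig8) and 1 lower (Contig7), beside 18.2% and 9.41% of all unigenes. In Group III it called 3 higher (Contig2, 8 and 10) and 1 lower (Contig1), beside 13.7% and 16.5%. At an unadjusted limma p under 0.05 there were 5 higher and 1 lower in Group I, 2 and 2 in Group II and 3 and 1 in Group III. The share of all unigenes at that unadjusted limit was not counted, so these numbers have no background. Median-of-ratios scaling gave 2 higher and 0 lower in Group I (7 and 1 unadjusted), 1 and 2 in Group II (1 and 4) and 2 and 1 in Group III (3 and 1). The shares of all unigenes called by the adjusted p were then 2.78% and 3.55%, 7.5% and 14.1%, and 10.2% and 17.9%. Contig7, 8 and 10 were chosen by such calls, and Contig1 passed the filter through 1 stage only, so nothing is read from these counts. On the deposited FPKM the number called in Group I was 0 without replicate 3 at 30 DAF or replicate 2 at 60 DAF. In Group II it was 1 without any single library of 30 DAF, without replicate 2 or 3 at 60 DAF and without replicate 1 at 90 DAF.

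The make-up of the cluster was also followed within each library. Contigs other than Contig10 held 4.67%, 5.06% and 3.89% of the cluster FPKM in the 30 DAF libraries, 4.07%, 5.35% and 4.32% in those of 60 DAF, and 4.02%, 6.89% and 4.48% in those of 90 DAF. Stage means were 4.54% ± 0.595, 4.58% ± 0.678 and 5.13% ± 1.54 (SD, n = 3), and the stages overlapped. These shares are a description without a test, because Contig8 and Contig10 were selected on these libraries. The Group III difference of 0.589 percentage points became -0.29 without replicate 2 at 90 DAF, the Group II difference of 0.547 became -0.331 without that library, and the Group I difference of 0.0416 became -0.343 without replicate 2 at 60 DAF and -0.283 without replicate 3 at 30 DAF. In replicate 2 at 90 DAF Contig10 was at its lowest and Contig8 at its highest for that stage, and Contig10 was 14.6 times as high as Contig8 there, against 25.3 to 43.7 times in the 8 other libraries. Contig8 held 6.39% of the cluster in that library and 2.19% to 3.77% in the others.

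**Figure D4:**
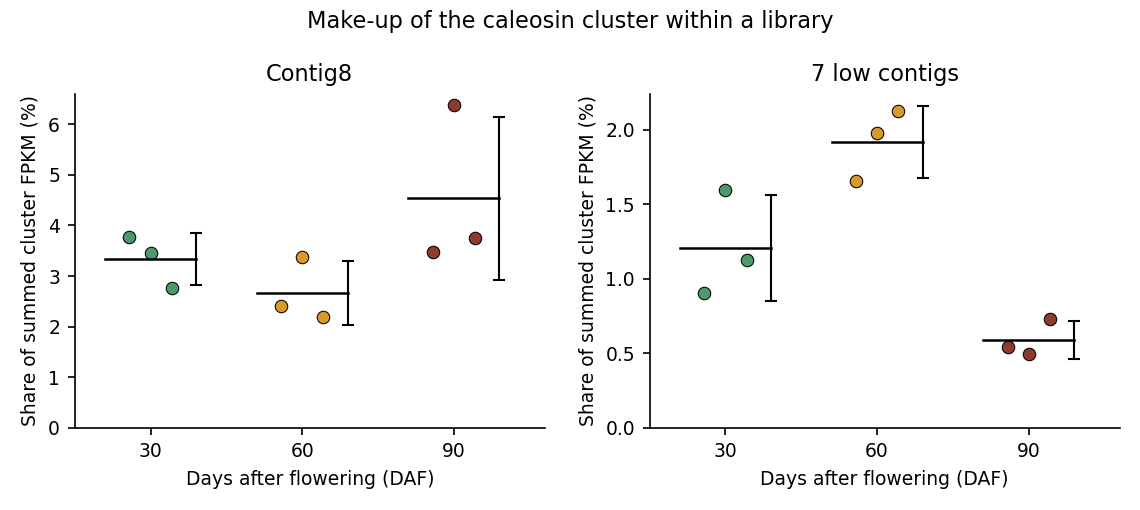
Share of the summed caleosin FPKM held by Contig8 (left) and by the 7 low contigs (right) in each library (points), in percent, against days after flowering, with the stage mean (line) and SD (bar, n = 3). The Contig8 shares overlap between stages, with 1 library at 90 DAF at 6.39%, whereas the low contigs hold 1.66% to 2.13% at 60 DAF and at most 0.733% at 90 DAF.

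Over the 9 libraries, on log2(FPKM + 0.5), Contig10 had a Pearson's r of 0.88 with Contig8, 0.60 with Contig2, 0.52 with Contig9, 0.50 with Contig4, 0.21 with Contig6, -0.31 with Contig7 and -0.94 with Contig1. These values are descriptions, since the libraries share the order of stages and the contigs share reads and library scaling. The r of Contig1 is also partly built in, because that contig passed the filter on low values only through libraries of the earliest stage. Nothing further is read from that r.

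Oleosin, the main structural protein of the oil body surface, gained more in summed FPKM between 30 and 60 DAF than caleosin did. The 6 oleosin unigenes of the study's list summed to 914, 758 and 777 FPKM in the 30 DAF libraries, 8723.6, 4810.8 and 6134.0 in those of 60 DAF, and 8056.0, 8543.5 and 12839.6 in those of 90 DAF. FPKM is a level per transcript length, so caleosin can be set beside oleosin within a library. The caleosin sum was 43.9%, 58.1% and 67.9% of the oleosin sum in the 30 DAF libraries, 7.83%, 16.1% and 10.7% in those of 60 DAF, and 17.9%, 12.3% and 11.9% in those of 90 DAF. The libraries at 30 DAF lay above all others, and those at 60 and 90 DAF overlapped. The ratio is within a library and is unchanged where a whole library is multiplied by a common factor, though quantile normalization can change it. The means were 56.6% ± 12.0, 11.6% ± 4.22 and 14% ± 3.38 (SD, n = 3). The ratio was not tested, because both lists were selected on these libraries.

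The oleosins did not move alike. CL8973.Contig3_All, the highest at 90 DAF among those with steady replicates, was at 145 ± 20.0, 1759.2 ± 208 and 3093.2 ± 467 FPKM, and Unigene26649_All was at 250 ± 45.6, 1038.5 ± 117 and 676 ± 36.8. Unigene23397_All was at 159 ± 8.11, 559 ± 179 and 546 ± 118. CL8973.Contig1_All ranged from 3.42 to 4367.14 FPKM within 60 DAF, and CL8973.Contig2_All from 11.11 to 1638.03, with Contig1 of that cluster lowest and Contig2 highest in replicate 2. CL8973.Contig4_All was at 33.19 to 416.98 FPKM at 60 DAF and 138.83 to 885.71 at 90 DAF. Summed over its 4 contigs, CL8973 was at 3327.1 to 6793.6 FPKM at 60 DAF, with 4958.8 ± 1742.2 beside 2263.7 ± 2186.1 for CL8973.Contig1_All. At 90 DAF the sum was 8590.7 ± 2660.5 and CL8973.Contig1_All 3854.3 ± 2810.3. The sum thus scattered less relative to its mean, but its SD in FPKM stayed large. Of the 6 oleosins, limma called 3 higher and 0 lower in Group I (3 and 0 at an unadjusted p under 0.05), 0 and 0 in Group II (1 and 1) and 3 and 0 in Group III (3 and 0). Over all tested unigenes the shares called higher and lower were 1.72% and 6.33%, 18.2% and 9.41%, and 13.7% and 16.5%. The median change of the 6 was 2.05, 0.93 and 2.62. After median-of-ratios scaling the counts were the same in Groups I and III, 1 was called lower in Group II (Unigene26649_All, -1.24), and the medians were 2.46, 0.31 and 2.40. The oleosins were selected on these libraries, so the counts are a description. The share of all unigenes at the unadjusted limit was not counted. Pearson's r with caleosin Contig10 over the 9 libraries ran from 0.45 for CL8973.Contig2_All to 0.87 for CL8973.Contig3_All.

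**Figure D5:**
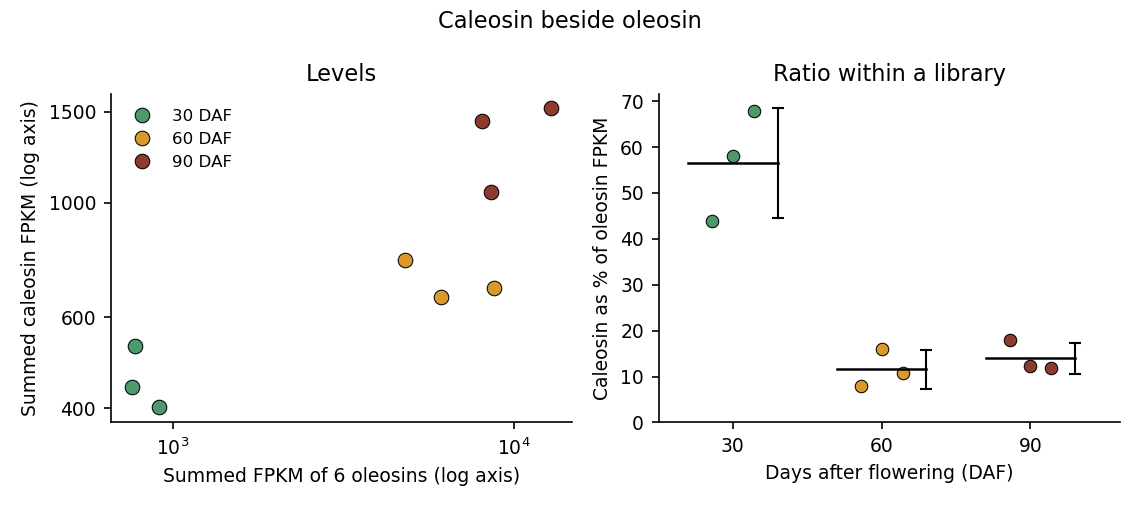
Left, summed caleosin FPKM against summed FPKM of the 6 listed oleosins in each library, both on log axes; right, caleosin as a percentage of oleosin FPKM in each library (points) against days after flowering, with the stage mean (line) and SD (bar, n = 3). The ratio is 43.9% to 67.9% at 30 DAF and 7.83% to 17.9% at the later stages.

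The enzymes that assemble the triacylglycerol inside the oil body moved in both directions. Of the 17 listed unigenes of this pathway 15 were tested, and limma called 1 higher and 2 lower in Group I, 5 and 3 in Group II and 7 and 6 in Group III, with median changes of -0.05, -0.06 and -0.11. The balance in Groups I and II turned after median-of-ratios scaling, with 3 higher and 1 lower, 1 and 4, and 7 and 7 in the 3 comparisons. The shares of all unigenes were 1.72% and 6.33%, 18.2% and 9.41%, and 13.7% and 16.5% on the deposited FPKM, and 2.78% and 3.55%, 7.5% and 14.1%, and 10.2% and 17.9% after that scaling. This list too was drawn by the study from these libraries, so the counts are a description. DGAT, which adds the last acyl chain to diacylglycerol, was low, with CL6160.Contig2_All at 3.37 ± 1.37, 4.41 ± 0.602 and 8.88 ± 1.19 FPKM and a Group III change of 1.32 (SE 0.25). PAP, the phosphatase that yields diacylglycerol, had 4 of 4 tested unigenes called higher in Group III, where 13.7% of all unigenes were, and its highest, CL3787.Contig2_All, went from 3.69 ± 0.662 over 6.41 ± 0.18 to 21.9 ± 0.819 FPKM. LPAAT, which acylates lysophosphatidic acid, was mixed. Of its 4 tested unigenes 2 were called higher and 1 lower in Group III, beside 13.7% and 16.5% of all unigenes. After median-of-ratios scaling 2 were called higher and 2 lower, beside 10.2% and 17.9%. The highest LPAAT, CL3672.Contig1_All, went from 13.3 ± 0.713 over 14.7 ± 5.81 to 42.0 ± 8.02 FPKM.

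Other enzymes of the pathway were lower at 90 than at 30 DAF. PDCT, which exchanges head groups between phosphatidylcholine and diacylglycerol, was at 37.0 ± 6.73, 13 ± 1.70 and 1.37 ± 0.406 FPKM in CL13909.Contig1_All, a Group III change of -4.33 (SE 0.22). PDAT, which takes its acyl chain from a phospholipid, was at 11.8 ± 0.552, 10.8 ± 0.566 and 5.13 ± 0.963 FPKM in Unigene43934_All. GPAT acylates glycerol-3-phosphate in the first step, and 3 of its 4 tested unigenes were called lower in Group III, where 16.5% of all unigenes were. In Group I 1 of the 4 was called higher and 1 lower, beside 1.72% and 6.33% of all unigenes. After median-of-ratios scaling 1 was called higher and 0 lower in Group I, beside 2.78% and 3.55%. The highest GPAT, Unigene30381_All, was at 7.74 ± 1.91, 3.60 ± 0.695 and 2.27 ± 0.879 FPKM.

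Among 454 tested unigenes of the study's lipid metabolism list outside the cluster, the 5 whose log2(FPKM + 0.5) followed Contig10 most closely over the 9 libraries were an alcohol dehydrogenase, an acyl-CoA oxidase, a hydroperoxide dehydratase and 2 beta-galactosidases. CL656.Contig5_All, the alcohol dehydrogenase, had a Pearson's r of 0.977 and was at 149 ± 15.4, 320 ± 121 and 1036.7 ± 365 FPKM. Unigene23060_All, an acyl-CoA oxidase, the enzyme of the first step of peroxisomal beta-oxidation, had an r of 0.970 and was at 35.8 ± 1.19, 62.7 ± 6.22 and 141 ± 35.6 FPKM. Like Contig10, both had their lowest library of 90 DAF in replicate 2, as did the 3 named next. This is partly built into the choice by r over the same libraries, and nothing is read from it.

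The other 3 were scarcely detected at 30 DAF. Unigene4688_All, the hydroperoxide dehydratase, which acts on fatty acid hydroperoxides, had an r of 0.967 and a mean of 1.61 FPKM at 90 DAF. Unigene33543_All and Unigene34170_All, the beta-galactosidases, had an r of 0.961 each and means of 3.27 and 28.9 FPKM at 90 DAF. Of all 55184 other tested unigenes, 1397 (2.53%) had an r of at least 0.9 with Contig10, and 555 (1.01%) after median-of-ratios scaling. The lipid list holds unigenes that the study had called differentially expressed on these libraries, so likeness to a contig that changes with stage is partly built in. The likeness is a description over libraries that share the order of stages. The choice depended on the measure, as 1 of the 5 was also among the 5 highest by Spearman's rho and 2 of them after median-of-ratios scaling.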

How the data were processed

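RNA of whole ‘Hangshao’ seeds was sequenced at 30, 60 and 90 DAF in 3 libraries each. The authors built the unigenes de novo, mapped the reads of each library to them with Bowtie2, and deposited the FPKM that RSEM estimated for every unigene and library, with tool versions not given in the sources used here. Altogether 9 table lines carried no unigene and were dropped. An FPKM of 0 means that no read was assigned. Read counts, the qRT-PCR and the oil measurements were not used here.

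Columns were assigned to stage and replicate by name. Unigenes that reached 0.5 FPKM in 3 or more libraries were fitted on log2(FPKM + 0.5) with limma 3.58.1 (R 4.3.3; stage term, variance trend, all 9 libraries). The thresholds follow the study, which tested counts. The code was also run on libraries simulated with normal noise from the same model, which does not test it on FPKM near 0. Other steps used Python 3.11.15, pandas 2.3.3, numpy 2.4.6, scipy 1.17.1, statsmodels 0.14.6 and matplotlib 3.10.9. Primer sequences came from the study's primer list.

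The named unigenes were the 9 contigs, the 6 listed oleosins, the highest unigene of each listed assembly enzyme, and the 5 lipid unigenes with the highest Pearson's r with Contig10. Members and lists were chosen with earlier results of these data known. Alternatives were other added values, filters, scalings, models and thresholds, and each library left out.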

Additional observations from a re-analysis of the deposited data

How the results depend on the processing

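The log2 change of the cluster sum kept its direction in Groups I, II and III under all 20 alternatives. Under median-of-ratios scaling it was 1.06 in Group I and 0.27 in Group II. Contigs called in Group I numbered 1, but 2 with 0.1 added, 2 after median-of-ratios scaling, and 0 without a filter, with only the 2 stages compared, with the replicate block and at an adjusted p of at most 0.01 (0 to 1 with 1 library left out). In Group II they numbered 2, but 1 without a filter, 1 with only the 2 stages compared, 1 at an adjusted p of at most 0.01 and 4 after quantile normalization (1 to 3 with 1 library left out). In Group III they numbered 3 to 4 with 1 library left out. Deviations from the stage mean correlated by -0.16 to 0.128 between libraries of the same replicate number and by -0.13 to 0.179 between those of different number. Libraries of the same number were thus no more alike, which cannot show that pairing is absent. With the replicate block in limma, Contig2 in Group I had an adjusted p of 0.0612. The Group I difference in the share of cluster FPKM outside Contig10 was -0.255 percentage points with 0.5 added to each contig. With 1 library left out it ran from -0.343 to 0.3 in Group I, from -0.331 to 1.1 in Group II and from -0.29 to 1.14 in Group III. The Group III change of Contig6 ran from -0.18 to 0.68, with -0.09 without replicate 1 at 30 DAF. Over all tested unigenes, 4443 were called in Group I and 2492 at an adjusted p of at most 0.01. The Group I total was 4363 with 0.1 added, 3494 after median-of-ratios scaling, 3558 without a filter, 4982 with only the 2 stages and 3502 with the block. In Group II it was 15230, and 14566 without a filter, 14072 with only the 2 stages, 11266 at 0.01 and 12797 after quantile normalization. Nothing is read from the counts of contigs. Widening the oleosin list to all contigs of its cluster added none. The cause of these differences was not tested. An FPKM of 0, as in Contig1 at 90 DAF, was not detected at this depth, which is not absence.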
